A study of Mus musculus with 12 samples.

Results

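The integrated stress response was followed through 9 genes in single liver cells of neonatal mice with phlebotomy-induced anemia (PIA): the transcription factor gene Atf4 and 8 genes of its amino acid and endoplasmic reticulum (ER) stress program, Ddit3, Ddit4, Asns, Trib3, Chac1, Sesn2, Psat1 and Phgdh. They were chosen by name among the 32285 genes of the count tables, with no threshold on their values. Livers of 12 C57BL6/J mice of both sexes were collected on postnatal day (P) 11, with 1 library per mouse. In the 6 anemic mice, 20 µL of blood per g of body weight was drawn from P2 to P10, every 2 days, toward a hematocrit of 20 to 24%. The 6 naive control mice received a daily needle stick without loss of blood. No genetic change was made in either group, and the labels give all 12 libraries the same batch.

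In cells under stress, kinases that sense unfolded ER proteins, missing amino acids, heme deficiency or double-stranded RNA phosphorylate the translation initiation factor eIF2. Most protein synthesis then slows, while the mRNA of ATF4 is translated better, so that the amount of ATF4 protein depends on translation as much as on its mRNA. ATF4 binds DNA together with other bZIP proteins such as the C/EBP family and raises genes for amino acid import and synthesis, for tRNA charging, and for the feedback and cell death steps that follow lasting stress. In the liver the pathway is known from amino acid restriction, and in erythroid precursors from heme shortage.

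Expression was read from unique molecular identifiers (UMIs), which count each captured mRNA molecule once. Cells were clustered and clusters were named from marker genes, so class names end in -like; 193964 of 206146 kept cells fell into 12 classes. Levels are counts per 1000000 UMIs (CPM), summed over the cells of 1 class in 1 mouse, without mitochondrial and ribosomal protein genes and scaled by the trimmed mean of M values (TMM). Anemia was compared with control class by class with the quasi-likelihood test of edgeR, and a gene is called where its p, adjusted by Benjamini and Hochberg over all genes tested in the class, was under 0.05. A gene needed a mean of 5 UMIs per mouse to be tested. Differences are log2 ratios of anemia over control with their standard error (SE).

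Libraries held 46252146 to 74545930 UMIs in 14184 to 21186 cells, and a pair of libraries shared 51 to 121 cell barcodes. The classes differed in depth, from 335441 UMIs in the shallowest erythroid-like sum of a mouse to 17582975 in the deepest endothelial-like one. Markers of 9 classes were all highest in their own class, against 6 of 8 for monocyte-like, 4 of 8 for pre-B-like and 7 of 9 for T-like cells. Since the clusters were named from these same markers, this describes the naming and is no test of it. Anemia 2 gave 4024 of the 9120 monocyte-like cells. Sex was uneven, with 4 female mice among the controls and 2 among the anemic mice by their transcripts, and 11.3 to 16.9% of the cells of a library were called as doublets and kept. This share was set in advance at 0.8% per 1000 kept cells and is no measured rate.

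Promoter sequences are shown first, since the same DNA elements recur in several of the 9 genes. RefSeq promoters of GRCm38.p6, from 250 bases before to 50 bases after the start site, were searched on both strands for TGATGNAA, the composite element that C/EBP and ATF proteins bind together, and for ACGTG, the core of the hypoxia response element. The composite element was found in 1304 of 32851 promoters (3.97%) and in 3 of the 9 genes, Asns, Trib3 and Chac1. The hypoxia core was found in 6447 promoters (19.6%) and in 4 of the 9, Ddit4, Ddit3, Asns and Psat1. A match describes these letters only and is no evidence of binding. In the sequences below, read 5′ to 3′ on the strand of the gene, capitals mark the match, which is the reverse complement TTNCATCA in Trib3 and Chac1.

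Asns, chr6:7693214-7693243, minus strand, composite element from base -23 to -16 of the RefSeq start: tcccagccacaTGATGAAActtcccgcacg
Trib3, chr2:152344028-152344057, minus strand, composite element from base 15 to 22: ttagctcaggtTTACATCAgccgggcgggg
Chac1, chr2:119350992-119351228, plus strand, composite element from base -193 to -186: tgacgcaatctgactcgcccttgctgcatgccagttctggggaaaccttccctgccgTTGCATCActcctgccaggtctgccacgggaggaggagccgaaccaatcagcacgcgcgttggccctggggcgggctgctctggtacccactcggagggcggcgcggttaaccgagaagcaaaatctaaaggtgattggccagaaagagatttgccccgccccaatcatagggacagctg
Ddit4, chr10:59951835-59952020, minus strand, hypoxia core from base -187 to -183: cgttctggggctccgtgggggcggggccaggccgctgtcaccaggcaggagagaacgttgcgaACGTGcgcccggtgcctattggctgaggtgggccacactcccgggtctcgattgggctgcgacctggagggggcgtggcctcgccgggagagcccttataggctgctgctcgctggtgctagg

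By the GENCODE M21 annotation of GRCm38 the Asns match begins 22 bases inside the gene, and those of Trib3, Chac1 and Ddit4 lie upstream of the gene's start. The other hypoxia cores lay at base 22 to 26 in Ddit3, -110 to -106 in Asns and 5 to 9 in a RefSeq promoter of Psat1 that starts inside the GENCODE gene.

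Before the groups are compared, the level of each gene over the classes is described, as the mean of all 12 mice. Atf4 (ENSMUSG00000042406, chr15:80255184-80257541, plus strand) was highest in stellate-like cells (128 CPM) and endothelial-like cells (124 CPM) and lowest in hepatocyte-like (46.1 CPM) and erythroid-like cells (45.4 CPM). The step between T-like (79.4 CPM) and hepatocyte-like cells held in each of the 12 mice, and all other neighbouring classes changed places in at least 1 mouse.

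Ddit3 (ENSMUSG00000025408, chr10:127290774-127296288, plus strand), which encodes the bZIP factor CHOP that acts in ER stress and cell death, ran from 24.2 CPM in B-like to 12.0 CPM in erythroid-like cells. It overlaps a second locus of the same symbol on the same strand, which held 0 UMIs, and Mars and Gm4189 on the other strand, so reads that these loci share are uncertain. Trib3 (ENSMUSG00000032715, chr2:152337422-152344032, minus strand), a pseudokinase that damps ATF4 signaling, was highest in erythroid-like (13.4 CPM) and endothelial-like cells (8.96 CPM) and lowest in macrophage-like cells (0.690 CPM). Chac1 (ENSMUSG00000027313, chr2:119351229-119354381, plus strand), an enzyme that breaks down glutathione, was low throughout, from 6.15 CPM in neutrophil-like to 0.180 CPM in T-like cells.

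Both inhibitors of the growth kinase complex mTORC1 in the list had their own pattern. Ddit4 (ENSMUSG00000020108, chr10:59949669-59951834, minus strand), also known as REDD1 and as a target of hypoxia-inducible factors and of glucocorticoids, was highest in endothelial-like cells (49.1 CPM) and reached 4.83 CPM in hepatocyte-like and 3.56 CPM in erythroid-like cells. Sesn2 (ENSMUSG00000028893, chr4:132492032-132510501, minus strand), a leucine sensor, ranged from 18.0 CPM in neutrophil-like to 4.10 CPM in hepatocyte-like cells, and it overlaps Gm12981 on its own strand.

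The 3 enzymes of amino acid synthesis had steep differences between classes. Asns (ENSMUSG00000029752, chr6:7675169-7693254, minus strand), asparagine synthetase, reached 51.8 CPM in erythroid-like cells, where all 12 mice lay above every mouse of the next class, neutrophil-like cells (13.3 CPM), and it stood at 12.3 CPM in hepatocyte-like and 0.647 CPM in dendritic-like cells. Phgdh (ENSMUSG00000053398, chr3:98313170-98339990, minus strand) and Psat1 (ENSMUSG00000024640, chr19:15904678-15947337, minus strand) encode consecutive enzymes of serine synthesis. Both were highest in pre-B-like cells, at 160.5 CPM for Phgdh and 134 CPM for Psat1. The next class was B-like for Phgdh (98.7 CPM), with no overlap between mice, and NK-like for Psat1 (57.3 CPM), lower in each of the 12 mice. Hepatocyte-like cells held 2.84 CPM of Phgdh and 9.53 CPM of Psat1, and macrophage-like cells 1.82 and 6.77 CPM.

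**Figure D1:**
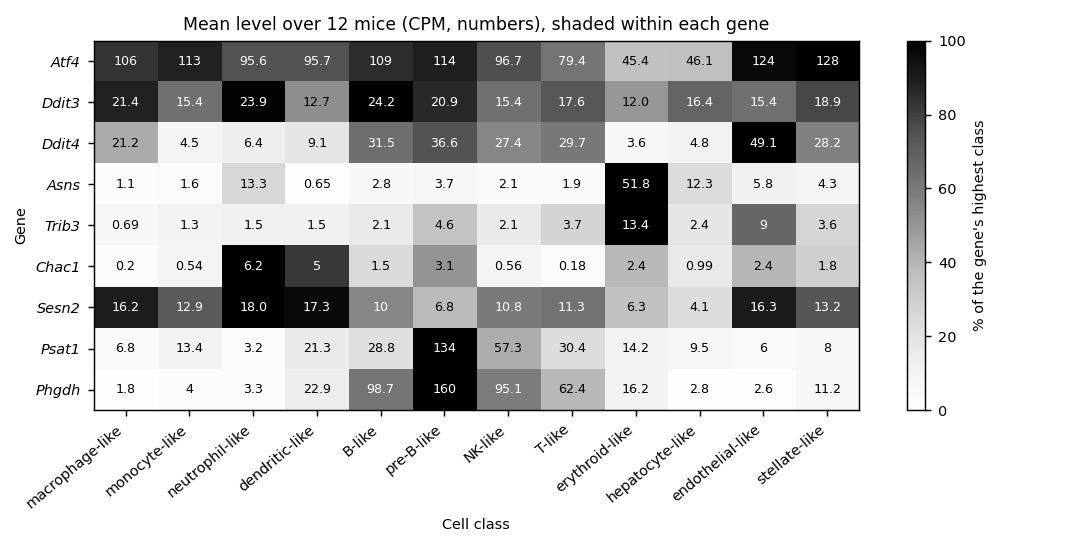
Mean level of each of the 9 genes (rows) in each of the 12 classes (columns), in CPM over 12 mice, with the grey scale giving the percent of that gene's highest class. Asns is darkest in erythroid-like cells (51.8 CPM), Phgdh and Psat1 in pre-B-like cells (160.5 and 134 CPM) and Ddit4 in endothelial-like cells (49.1 CPM).

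Levels also differed between clusters of a class. Cluster 35, 2069 erythroid-like cells led by Car1, Slc25a21, Rhd and Car2, held the highest pooled level of any cluster of at least 200 cells for 6 of the 9 genes, Asns (256.63 CPM), Atf4 (162.36), Trib3 (59.197), Ddit3 (54.927), Sesn2 (33.695) and Chac1 (16.155). Every mouse had Asns there, from 182.87 to 379.31 CPM, while the next cluster, a neutrophil-like one, reached 22.655 CPM pooled. Doublet calls covered 37.6% of the cells of cluster 35. Ddit4 was highest in cluster 44 (161.89 CPM), endothelial-like cells led by Ccl21a, Mecom, Thsd7a and Fbln2, followed by the mast or basophil-like cluster 52 (117.24 CPM). Phgdh reached 449.02 CPM in cluster 58, B-like cells led by immunoglobulin light chain genes.

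The first question of the comparison was in which cells anemia changed these genes. Ddit4, the mTORC1 inhibitor, rose in endothelial-like, macrophage-like and stellate-like cells. The biosynthetic enzymes Asns and Psat1 rose in hepatocyte-like cells, and Asns also rose in endothelial-like cells. The mRNA of Atf4 itself fell in B-like and hepatocyte-like cells. Ddit3, Chac1, Sesn2 and Phgdh were called in no class by the main edgeR fit.

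In numbers, 96 of the 108 pairs of gene and class held enough UMIs to be tested and 9 were called (9.38%), 7 higher and 2 lower. Of these, 1 (Trib3 in hepatocyte-like cells) passed the filter on low counts only through the anemic mice, so nothing is read from its call. Of all genes tested over the 12 classes 8.83% were called, so the share among the 9 genes was near that of genes in general. Asns was too low in T-like, dendritic-like and monocyte-like cells, Trib3 in these and in neutrophil-like cells, and Chac1 in NK-like, T-like, hepatocyte-like, macrophage-like and monocyte-like cells. In hepatocyte-like cells 4 of 8, Trib3 among them, were called against 52.9% of all genes, which says nothing particular of these genes. Outside hepatocyte-like cells 5 of 88 pairs were called (5.68%), near the 4.95% of all genes in the same classes.

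In endothelial-like cells 2 of 9 were called against 18.0% of all genes, in stellate-like cells 1 of 9 against 15.0%, in macrophage-like cells 1 of 8 against 2.83% and in B-like cells 1 of 9 against 3.33%. None was called by edgeR in the other 7 classes, of 6 tested in monocyte-like cells (background 1.08%), 8 in neutrophil-like (0.267%), 7 in dendritic-like (0.894%), 9 in pre-B-like (1.88%), 8 in NK-like (0.545%), 6 in T-like (0.558%) and 9 in erythroid-like cells (0.262%). At an unadjusted p under 0.05 these 7 classes held 1, 1, 3, 1, 2, 2 and 2 of the genes in that order, beside 16.0, 14.4, 13.2, 14.1, 12.7, 8.06 and 10.1% of all genes. DESeq2 called 1 in the neutrophil-like class, and a joint limma voom model called 1 each in the dendritic-like and erythroid-like classes.

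**Figure D2:**
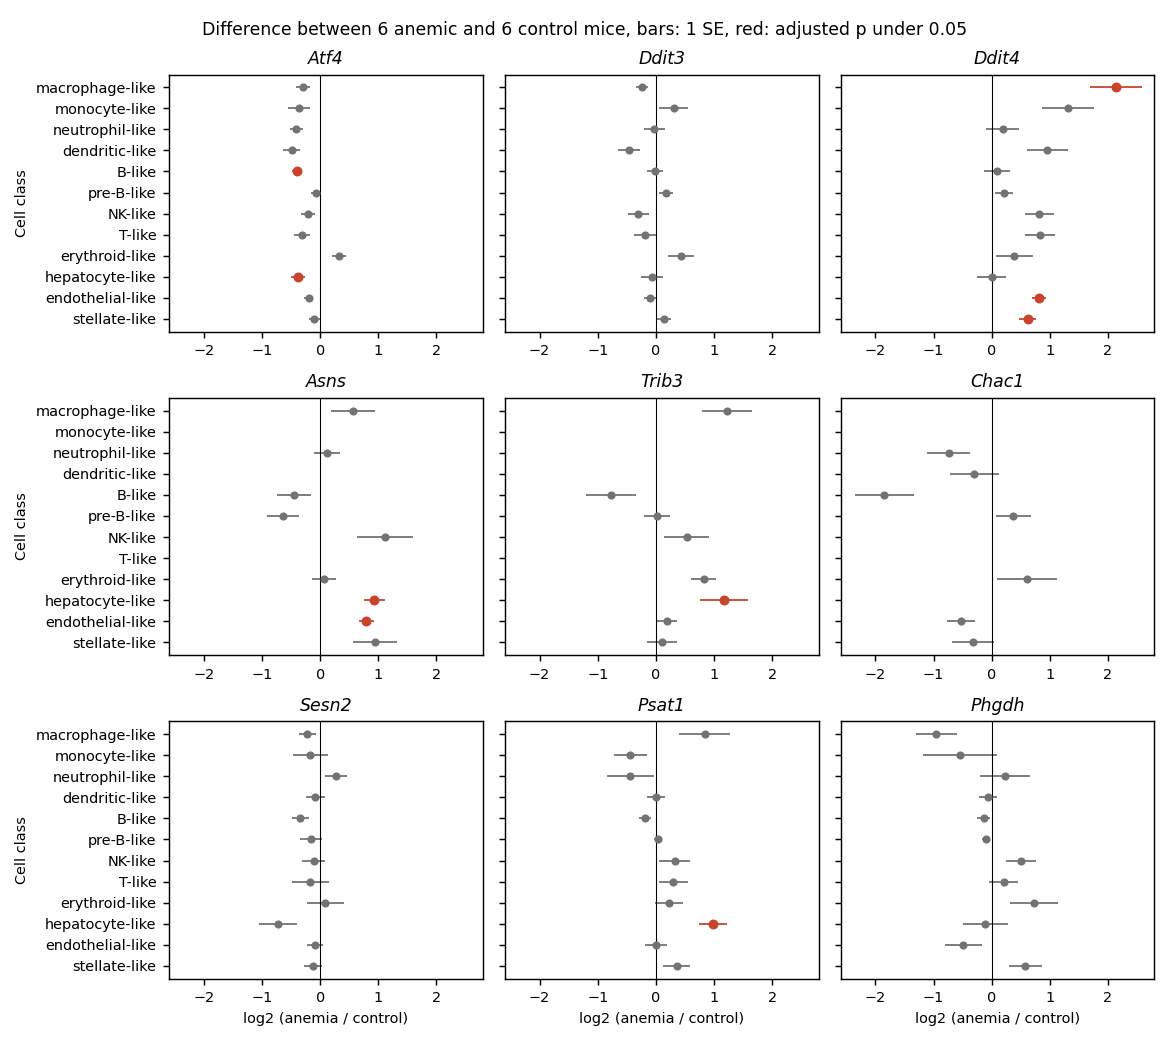
Difference between anemic and control mice (x axis, log2 of anemia over control) for each gene (panels) in each class (y axis), with 1 SE as bars and 6 mice per group. The 9 called pairs are red, 3 of them Ddit4 and 1 (Trib3 in hepatocyte-like cells) tested only through the UMIs of the anemic mice, and Atf4 lies below 0 in 11 of 12 classes.

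The scaling moved the balance of calls. Without TMM factors the median log2 difference of all genes was -0.40 in hepatocyte-like and -0.29 in erythroid-like cells, against -0.02 and 0.01 with them. The share of higher calls went from 51.2 to 21.7% in hepatocyte-like, from 96.4 to 17.2% in erythroid-like, from 42.8 to 23.1% in endothelial-like, from 54.0 to 35.3% in stellate-like and from 52.2 to 41.4% in macrophage-like cells. Every difference here is therefore relative to the other genes of the class.

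Atf4 was lower in anemia in 11 of 12 classes, and in 2 of them the difference passed the test. B-like cells held 112 to 139.6 CPM in the controls (median 121) and 81.4 to 108 CPM in the anemic mice (median 92.5). All 6 anemic mice lay below all controls. The log2 difference was -0.40 (SE 0.09, edgeR adjusted p = 0.0152). In hepatocyte-like cells the controls held 45.6 to 64.2 CPM (median 48.8) and the anemic mice 33.3 to 52.6 CPM (median 38.9), a log2 difference of -0.38 (SE 0.12, edgeR adjusted p = 0.0169). Here 5 of 6 anemic mice lay below all controls, and anemia 5 lay among them.

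In the uncalled classes the log2 difference of Atf4 ran from -0.49 (SE 0.15) in dendritic-like to -0.07 (SE 0.08) in pre-B-like cells, and erythroid-like cells stood at 0.32 (SE 0.12, edgeR adjusted p = 0.346), with 5 of 6 anemic mice above all controls. At an unadjusted p under 0.05, 8 of 12 classes passed, among them the erythroid-like class, where Atf4 was higher. Of all genes 8.06% (T-like) to 58.3% (hepatocyte-like) passed it in a class. Without TMM factors the erythroid-like difference turned to -0.06, so that all 12 classes were then below 0, and with only the cells of lower hepatocyte RNA 10 of 12 were. In B-like cells 9 abundant hepatocyte transcripts summed to 4854 to 7046 CPM in the controls and 905 to 3859 CPM in the anemic mice. With only the cells of lower hepatocyte RNA, Atf4 in the B-like class stood at -0.37 with an adjusted p of 0.0502. Cluster 45 made up a median of 34.7% of the B-like cells in controls and 45.0% in anemic mice, with 4 of 6 anemic mice above all controls. The part of these signals in the level of Atf4 was not tested.

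Ddit3, the gene of CHOP, differed little. Its log2 difference ran from -0.46 (SE 0.19) in dendritic-like to 0.43 (SE 0.23) in erythroid-like cells, above 0 in 4 and below 0 in 8 of 12 classes, and no class was called by the main edgeR fit, DESeq2 or the voom model (2 passed an unadjusted p under 0.05). Without TMM factors Ddit3 was called lower in hepatocyte-like cells (log2 -0.45). In hepatocyte-like cells the controls held 11.3 to 20.9 CPM (median 17.8) and the anemic mice 9.74 to 21.3 CPM (median 14.8). The groups overlapped through most of their range.

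Trib3 was above 0 in 7 of 8 tested classes. Among these 7, macrophage-like cells (21 UMIs in the controls, 45 in the anemic mice) passed the filter on low counts only through the anemic mice. B-like cells, the class below 0, passed it only through the controls (58 and 28 UMIs), so nothing is read from this count. The call was in hepatocyte-like cells. The controls held 0.262 to 2.90 CPM there (median 1.19) and the anemic mice 2.56 to 4.55 CPM (median 3.22). Of the anemic mice, 4 lay above all controls. These levels rest on 28 UMIs in the controls, which alone would not have passed the filter on low counts, and 51 in the anemic mice, so the log2 difference of 1.17 (SE 0.41, edgeR adjusted p = 0.0228) is given as a value only. The call for Trib3 in the hepatocyte-like class was lost without anemia 5 (log2 0.99, adjusted p = 0.0726), without TMM factors (0.80, 0.0989) and with cells of at most 10% mitochondrial UMIs (0.76, 0.156). In erythroid-like cells, where Trib3 is highest, the controls held 6.44 to 17.4 CPM (median 8.15) and the anemic mice 14.4 to 20.1 CPM (median 16.9), a log2 difference of 0.82 (SE 0.21, edgeR adjusted p = 0.136). Only control 6 reached the anemic range, and without it Trib3 in the erythroid-like class was called (log2 1.13, adjusted p = 0.0134). Since that fit leaves out the overlapping control, nothing is read from its call. With all mice kept, Trib3 was also called in the erythroid-like class without the filter on low counts and in the joint voom model.

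Chac1 had too few UMIs for a test in 5 classes and was called in none of the other 7 by the main edgeR fit, with 2 at an unadjusted p under 0.05. The largest difference was in B-like cells, with 1.45 to 3.91 CPM in the controls (median 2.06) and 0 to 1.80 CPM in the anemic mice (median 0.477). Of the anemic mice, 5 lay below all controls. The log2 difference was -1.85 (SE 0.51, edgeR adjusted p = 0.0515), on 50 UMIs in the controls and 11 in the anemic mice, which alone would not have passed the filter. DESeq2 and the joint voom model each called Chac1 in 1 class, these B-like cells. Over all alternatives, edgeR fits among them, it was called there in 7, and nothing is read from that.

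Ddit4 was higher in anemia in 11 of 12 classes and called in 3. Monocyte-like cells (9 UMIs in the controls, 133 in the anemic mice) and erythroid-like cells (29 and 160) are among the 11. Both passed the filter on low counts only through the anemic mice, so nothing is read from their direction. In endothelial-like cells the controls held 31.6 to 38.1 CPM (median 36.0) and the anemic mice 48.7 to 81.8 CPM (median 62.8). Every anemic mouse lay above every control. This gave a log2 difference of 0.82 (SE 0.12, edgeR adjusted p = 4.07e-04), or 1.77-fold, and it was called under each of the 24 alternatives run. The endothelial-like cells of anemic mice were also deeper, with a median of 4113 to 5334 UMIs per cell against 3108 to 3832 in controls. The hepatocyte markers summed to 1957 to 3342 CPM there in controls and 380.3 to 1794 CPM in anemic mice, with 0 of 9 higher, the T markers to 70.2 to 92.3 and 22.7 to 60.8 CPM, and the erythroid markers to 1062 to 3365 and 4545 to 9895 CPM, each without overlap. The part of depth and of these signals in the levels was not tested.

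In macrophage-like cells Ddit4 ran from 4.28 to 9.95 CPM in the controls (median 8.58) and from 8.43 to 78.0 CPM in the anemic mice (median 26.2). The anemic mice spread widely, from anemia 2 within the control range to anemia 3 and anemia 5 at 51.4 and 78.0 CPM. The log2 difference was 2.14 (SE 0.44, edgeR adjusted p = 0.0211). For Ddit4 in the macrophage-like class the call was lost without control 1 (log2 2.07, adjusted p = 0.066), control 4 (2.16, 0.0513), control 6 (2.19, 0.0505) or anemia 3 (1.97, 0.0554), and with Y-linked expression as a covariate (1.78, 0.0871), while the direction held. The make-up of the class moved as well. Cluster 3, led by Clec4f and Vsig4, made up a median of 58.0% of a control mouse's macrophage-like cells and 49.5% of an anemic mouse's, and 0.655% in anemia 2. Cluster 4, led by Marco and Serpinb2, made up 4.76 and 10.9%, and 59.0% in anemia 2. Within cluster 4 Ddit4 had a median of 4.01 CPM over the controls and of 13.9 CPM under anemia, and within cluster 5, led by Vsig4 and Slc40a1, medians of 7.48 and 22.9 CPM. The log2 differences were 2.54 (SE 0.66, edgeR adjusted p = 0.345) and 1.90 (SE 0.49, edgeR adjusted p = 0.0907), neither called, where 0 of 11311 genes were called in cluster 4 and 49 of 9137 in cluster 5. Cluster 4 held 629 control and 2690 anemic cells, and the cells of cluster 5 had a median of 871 UMIs. At these control levels the filter on low counts may have been passed only through the anemic mice, so both differences are given as values only.

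The erythroid markers in this class summed to 1062 to 7224 CPM in controls and 4086 to 17725 CPM in anemic mice, with 10 of 10 higher. The hepatocyte markers (1891 to 2964 and 359 to 1828 CPM), the pre-B markers (191 to 301 and 57.3 to 166 CPM) and the T markers (19.8 to 23.4 and 11.8 to 17.1 CPM) were lower in anemic mice without overlap, and the dissociation list ran from 7444 to 9047 CPM in controls and from 3719 to 7506 CPM in anemic mice. Their part in the level of Ddit4 was not tested.

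Stellate-like cells held 17.4 to 25.7 CPM of Ddit4 in the controls (median 23.9) and 21.9 to 43.5 CPM in the anemic mice (median 33.2). Again 5 of 6 anemic mice lay above all controls, and anemia 3 did not. This gave a log2 difference of 0.62 (SE 0.15, edgeR adjusted p = 0.0119). Doublet calls covered 38.9 to 82.1% of the stellate-like cells of a control and 41.3 to 99.3% of those of an anemic mouse, and with doublets left out Ddit4 in the stellate-like class stood at 0.35 (adjusted p = 0.52). That fit set no minimum of cells, and this class held as few as 135 cells in a mouse before doublets were left out. Almost no cells can be left where 99.3% were doublet calls, so nothing is read from the lost call. The erythroid markers there summed to 1088 to 4041 CPM in controls and 5412 to 14949 CPM in anemic mice, while the 9 endothelial markers, none of them higher, summed to 3475 to 5533 and 2615 to 4925 CPM. Without overlap between the groups, the pre-B markers summed to 299 to 513 CPM in controls and 564 to 811 CPM in anemic mice, and Malat1 ran from 34175 to 37579 and from 39799 to 44502 CPM. Cluster 0 made up a median of 61.0% of the class in controls and 30.9% in anemic mice. Their part in the level of Ddit4 was not tested.

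Hepatocyte-like cells did not differ detectably in Ddit4, with 3.17 to 7.13 CPM in the controls and 3.25 to 6.18 CPM in the anemic mice (log2 -0.00, SE 0.25). The remaining 8 classes were above 0, and NK-like, T-like and dendritic-like cells stood at 0.82, 0.83 and 0.96 without a call. The 1.31 of monocyte-like cells, also without a call, rests on 9 UMIs in the controls and is given as a value only.

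Sesn2 was below 0 in 10 of 12 classes and called in none by the main edgeR fit or DESeq2, with 2 at an unadjusted p under 0.05 and 1 called by the voom model. The largest difference was in hepatocyte-like cells, with 2.64 to 8.08 CPM in the controls (median 4.97) and 0.853 to 4.87 CPM in the anemic mice (median 3.12). The groups overlapped in 4 of the 6 anemic mice. The log2 difference was -0.72 (SE 0.33, edgeR adjusted p = 0.0732). Sesn2 was called in this class in 7 alternatives. Of these, some left out TMM factors, control 4, control 5 or anemia 2. The others took cells of at most 10% mitochondrial UMIs, Leiden resolution 1 or the voom model. In endothelial-like, macrophage-like and stellate-like cells, where Ddit4 was called, Sesn2 stood at -0.09 (SE 0.14), -0.22 (SE 0.15) and -0.12 (SE 0.16).

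Asns rose in hepatocyte-like and endothelial-like cells. In hepatocyte-like cells the controls held 5.50 to 10.4 CPM (median 9.22) and the anemic mice 11.9 to 19.5 CPM (median 16.7). No anemic mouse reached the control range. This gave a log2 difference of 0.93 (SE 0.18, edgeR adjusted p = 3.76e-04), or 1.90-fold. In endothelial-like cells the controls held 3.62 to 5.29 CPM (median 4.10) and the anemic mice 5.70 to 8.74 CPM (median 7.26), again without overlap, with a log2 difference of 0.79 (SE 0.13, edgeR adjusted p = 0.00117). Both calls held in every alternative in which the pair was tested.

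Erythroid-like cells, the class with most Asns, did not differ detectably in it. The controls held 38.3 to 87.1 CPM (median 46.0) and the anemic mice 31.6 to 68.9 CPM (median 54.3), a log2 difference of 0.07 (SE 0.21, edgeR adjusted p = 0.962). Most Asns UMIs of this class lay in cluster 35, which made up 3.60 to 27.1% of its cells in controls and 2.70 to 12.6% in anemic mice. The part of that share in this difference was not tested. The sum of the erythroid markers ran from 2142 to 9520.4 CPM in hepatocyte-like cells of controls and from 9370.4 to 32879 CPM in those of anemic mice, with 10 of 10 markers higher, and from 1062 to 3365 and 4545 to 9895 CPM in endothelial-like cells, with 9 of 10 higher. Per 1000 UMIs of these markers, anemic mice held 0.437 to 1.86 UMIs of Asns in hepatocyte-like, 0.698 to 1.47 in endothelial-like and 0.0252 to 0.112 in erythroid-like cells. In the controls the same ratios were 0.668 to 4.92, 1.23 to 5.20 and 0.0385 to 0.364. The part of erythroid RNA in the level of Asns was not tested.

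Psat1 was called in hepatocyte-like cells, as Asns was, and in no other class. The controls held 3.33 to 8.70 CPM there (median 6.76) and the anemic mice 10.2 to 21.1 CPM (median 11.6). The groups did not overlap, and anemia 2 stood apart as the highest. The log2 difference was 0.98 (SE 0.24, edgeR adjusted p = 0.00243), and it was called in every alternative in which it was tested. In pre-B-like cells, where Psat1 is highest, the controls held 118 to 154 CPM and the anemic mice 121 to 149 CPM, a log2 difference of 0.03 (SE 0.07).

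Phgdh, the gene of the enzyme before PSAT1 in serine synthesis, was called in no class by the main edgeR fit or DESeq2, with 1 at an unadjusted p under 0.05 and 1 called by the voom model. In hepatocyte-like cells, where Psat1 rose, it ran from 0.786 to 4.28 CPM in the controls and from 0.976 to 4.06 CPM in the anemic mice, a log2 difference of -0.11 (SE 0.39) on a mean of 7.67 UMIs per mouse. In pre-B-like cells, where it is highest, the controls held 150.0 to 185 CPM and the anemic mice 134 to 175 CPM, a log2 difference of -0.10 (SE 0.07). Stellate-like cells held 5.23 to 18.4 CPM in the controls and 9.70 to 17.8 CPM in the anemic mice (log2 0.58, SE 0.28, edgeR adjusted p = 0.181). Phgdh was called there without control 3, with the replicate number as a block and in the voom model. Macrophage-like cells had the largest difference, with 1.91 to 3.72 CPM in the controls and 0.197 to 2.24 CPM in the anemic mice (log2 -0.95, SE 0.35, edgeR adjusted p = 0.138). In 5 of 6 anemic mice the level lay below all controls. Over the alternatives this log2 difference ran from -1.28 to 0.28, with the other sign in 1 of them. The pre-B markers, from the class with most Phgdh, were also lower in macrophage-like cells of anemic mice, as given above. Their part in the level of Phgdh was not tested.

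**Figure D3:**
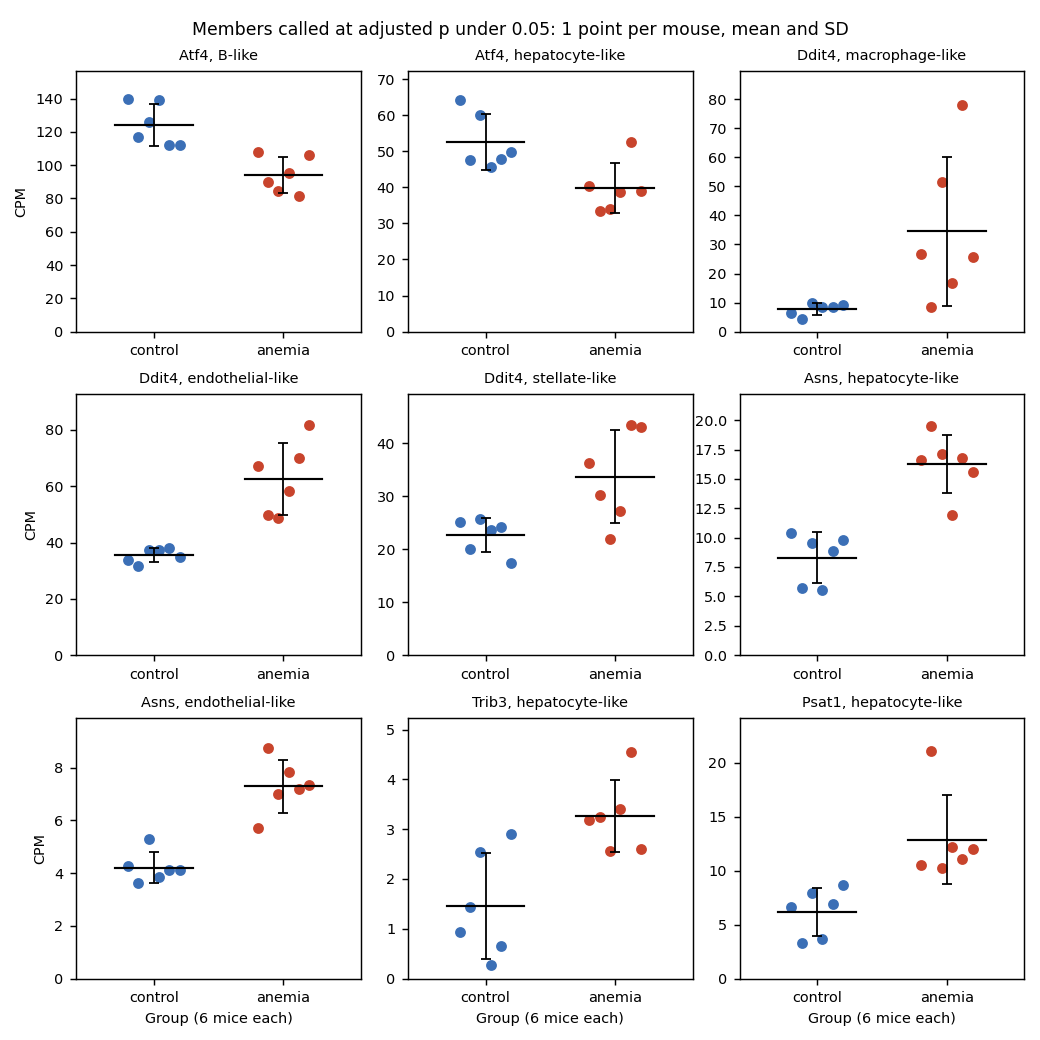
Level in CPM (y axis, from 0) of the 9 called pairs of gene and class in each of 6 control (blue) and 6 anemic mice (red), 1 point per mouse, with lines and bars for mean and SD. The groups do not overlap for Atf4 in B-like, Ddit4 in endothelial-like, Asns in hepatocyte-like and endothelial-like and Psat1 in hepatocyte-like cells, and Trib3 passed the filter on low counts only through the anemic mice.

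The hepatocyte-like cells fell into 6 clusters whose shares moved with anemia. Cluster 24, led by Apob, Cps1 and Alb, made up a median of 20.9% of the class in controls and 8.47% in anemic mice, and cluster 23, led by Dpyd, Apob and Cps1, 11.3 and 4.74%. Cluster 32, led by Fabp1 and Uox, went from 14.2 to 23.5%, and cluster 27, led by Uox and Gnmt, from 8.18 to 15.5%. The groups did not overlap for clusters 23, 24 and 32. Atf4 differed between these clusters, with control medians of 121 CPM in cluster 23 and 63.8 CPM in cluster 24 against at most 47.3 CPM in the other 4, so the clusters with most Atf4 were those whose share was lower in anemia. In cluster 23, 64.8% of the cells were called as doublets.

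Within the 6 clusters edgeR called none of 15 tested pairs, against 6.45% of all genes in cluster 11, 5.26% in cluster 12, 4.85% in cluster 23, 4.72% in cluster 24, 5.24% in cluster 27 and 2.99% in cluster 32, and 2 of the 15 passed an unadjusted p under 0.05. Asns was above 0 in 4 of 4 clusters tested, with log2 differences of 0.13 to 0.78, and Psat1 in 3 of 3, with 0.36 to 0.52. Both were thus smaller than in the class as a whole. Atf4 was below 0 in 5 of 6, from -0.60 to -0.20, and stood at 0.33 in cluster 12. Other signals moved with the class too. Endothelial markers summed to 594 to 946 CPM in controls and 109 to 375 CPM in anemic mice, and stellate markers to 504 to 850.1 and 36.2 to 196 CPM, with 0 of 9 higher in each list. The nuclear RNA Malat1 ran from 8113 to 10549 CPM in controls and from 3583 to 5933 CPM in anemic mice. How far these differences entered the levels of the 9 genes was not tested.

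**Figure D4:**
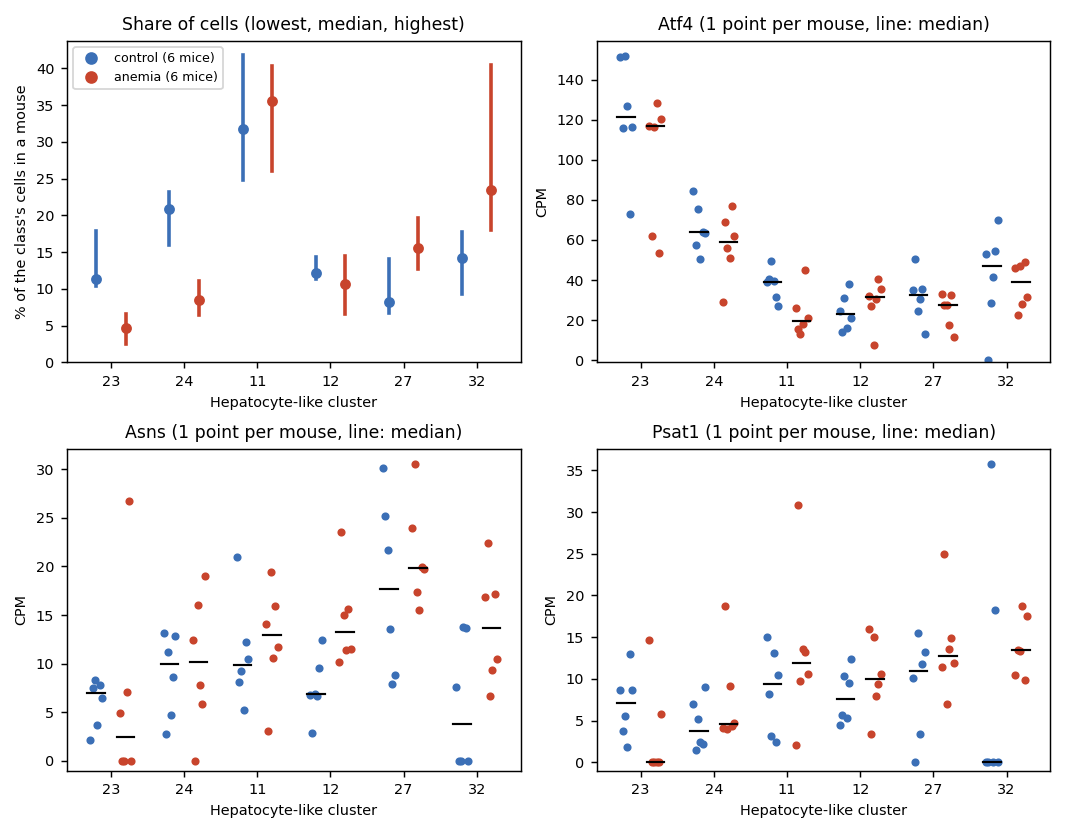
The 6 hepatocyte-like clusters (x axis), with the percent of the class's cells per mouse (lowest, median and highest of 6 mice) and the level of Atf4, Asns and Psat1 in CPM (1 point per mouse, line at the median), including clusters too shallow for a test. Clusters 23 and 24 hold most Atf4 (control medians 121 and 63.8 CPM) and have smaller shares in anemia.

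The same fit was run in 35 clusters with at least 20 cells in every mouse. It called 9 of 185 pairs (4.86%), against 3.68% of all genes over these clusters. Ddit4 rose in 3 of 4 endothelial-like clusters tested. In cluster 26, led by Fgf23, Adam23, Stab2 and Flt1, the controls held 18.2 to 24.1 CPM and the anemic mice 32.4 to 51.8 CPM, without overlap (log2 0.93, SE 0.13, edgeR adjusted p = 1.96e-04, 17.8% of all genes called). Clusters 25 and 41 stood at 0.81 (edgeR adjusted p = 6.40e-04, 13.1% of genes called) and 0.82 (edgeR adjusted p = 0.0128, 8.81%). Cluster 44, where Ddit4 is highest, held 112 to 189 CPM in controls and 117 to 208 CPM in anemic mice, a log2 difference of 0.19 (SE 0.15).

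Shares moved between the endothelial-like clusters, with cluster 25 falling from a median of 44.6 to 19.5% of the class and cluster 26 going from 27.7 to 48.0%, both without overlap. Ddit4 differed by 0.81 and 0.93 within clusters 25 and 26 and by 0.82 in the class. Asns was called in clusters 26 (log2 0.92, edgeR adjusted p = 0.00451) and 41 (1.11, 0.0265). In the stellate-like cluster 0, led by Ank3, Colec11 and Reln, Ddit4 ran from 20.9 to 32.9 CPM in controls and from 27.6 to 80.3 CPM in anemic mice (log2 1.06, SE 0.18, edgeR adjusted p = 0.00125, 6.52% of genes called), and doublet calls covered 57.4% of its cells. In cluster 1, the other stellate-like cluster, led by Mfap4 and Col1a1 and with a median of 39.0% of the class in controls and 69.1% in anemic mice, Ddit4 was not called, with 8.71 to 16.9 CPM in controls and 12.4 to 26.1 CPM in anemic mice (log2 0.54, SE 0.23, edgeR adjusted p = 0.404).

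Atf4 was below 0 in 30 of the 35 clusters and called in 2. The B-like cluster 45, led by Iglc2, Ms4a1 and Igkc, held 109.6 to 140.0 CPM in controls and 72.1 to 98.0 CPM in anemic mice, without overlap (log2 -0.55, SE 0.09, edgeR adjusted p = 0.00261, 2.37% of genes called). Cluster 26 stood at -0.27 (edgeR adjusted p = 0.044). The remaining call was Ddit3 in the erythroid-like cluster 34 (6.23% of genes called), with 0 to 5.42 CPM in controls (median 0) and 4.81 to 8.69 CPM in anemic mice. It passed the filter on low counts through the anemic mice, which gave over 80% of the cluster's cells after scaling to the cells of each group, and is given as values only. Cluster 35, with most Asns, had no call by edgeR among 9 tested and none at an unadjusted p under 0.05, against 0.237% of all genes.

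In the erythroid-like class as a whole, all 9 genes had a log2 difference above 0, from 0.07 for Asns to 0.82 for Trib3, with a median of 0.39 against 0.01 for all genes. Chac1 (17 UMIs in the controls, 126 in the anemic mice) and Ddit4 (29 and 160) passed the filter on low counts there only through the anemic mice. The count of 9 and the median include them, so nothing is read from either. Without TMM factors 5 of 9 were above 0 and the median was 0.16. The cells of this class lay in different clusters in each group. Cluster 33 made up a median of 53.5% of the class in controls and 31.1% in anemic mice, cluster 34 made up 19.9 and 34.6%, and cluster 36 made up 7.43 and 19.1%, without overlap for cluster 36. Cluster 35 ran from 3.60 to 27.1% in controls (median 8.86) and from 2.70 to 12.6% in anemic mice (median 6.67). It held 2224 UMIs of Asns, where the whole class held 428 in controls and 2050 in anemic mice. The part of its share in the class differences was not tested.

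Whether a gene's difference in 1 class departed from its difference in the other classes was asked with an exact two-sided permutation test over mice, which can give a p of 0.00216 at the smallest. Of 96 pairs, 25 had an unadjusted p under 0.05 and 5 had the smallest p, adjusted to 0.0416. On the scale of log2(CPM + 1), Asns differed by 0.91 in hepatocyte-like cells against a mean of 0.18 elsewhere and by 0.67 in endothelial-like cells against 0.21, and in pre-B-like cells it stood at -0.41 against 0.35. Atf4 stood at 0.30 in erythroid-like cells against -0.29, and Phgdh at -0.71 in macrophage-like cells against 0.09. The edgeR difference of Phgdh in macrophage-like cells had the other sign in 1 of the alternatives. In each of the 5 pairs the departures from the other classes, though not always the levels themselves, lay on 1 side of all 6 controls in all 6 anemic mice. The smallest p of this test arises only in that case, so the separation restates the p and adds nothing to it. Unless further pairs come close to the smallest p, at least 5 must have it for an adjusted p to pass. With a pseudocount of 0.1 or 10 CPM in place of 1 the lowest adjusted p was 0.0693.

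Other genes were read from lists of 124 genes, of which 201 of 1394 pairs of gene and class were called, 131 higher and 70 lower. The lists of hypoxia targets, glucocorticoid targets, dissociation response and hepatocyte RNA are no part of the pathway and gave 100 of these calls on 400 pairs. The pathway lists gave 101 calls on 994 pairs (10.2%), near the 8.83% of all genes. In hepatocyte-like cells, where 52.9% of all genes were called, 6 of 7 tested enzymes of amino acid and one-carbon synthesis rose and none fell. Cth, which makes cysteine from cystathionine, ran from 217 to 430.1 CPM in controls and from 626 to 1224 CPM in anemic mice (log2 1.69, SE 0.17, edgeR adjusted p = 6.78e-07). It is among the leading genes of cluster 27, which made up more of the class in anemic mice. The transaminase Got1 rose by 1.47 (SE 0.10), from 139 to 214 CPM in controls to 433 to 515 CPM in anemic mice. The list's median was 1.06, against -0.02 for all genes.

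Upstream of ATF4, the 4 eIF2 kinases had a median log2 difference of -0.15 in hepatocyte-like cells, and Eif2ak4, the sensor of uncharged tRNA, rose in endothelial-like cells by 0.31 (SE 0.08, edgeR adjusted p = 0.02). Of the 9 genes for eIF2 and its exchange factor eIF2B, 7 rose in hepatocyte-like cells (all genes called, 52.9%), Eif2b1 by 0.88 (SE 0.16) and Eif2s2 by 0.67 (SE 0.08). Both subunits that guide the eIF2 phosphatase fell there, Ppp1r15a with a log2 difference of -0.68 (SE 0.12) and Ppp1r15b with -0.51 (SE 0.13). Among the 6 bZIP partners 4 rose, with Cebpb at 1.19 (SE 0.20) and Cebpg at 0.73 (SE 0.09), and Atf3 fell (-0.62, SE 0.15). Whether these lists depart from the 52.9% was not tested.

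Among amino acid transporters 3 of 7 fell in hepatocyte-like cells and the other 4 were not called, beside 52.9% of all genes called. Slc38a2, which imports small neutral amino acids, ran from 131 to 163 CPM in controls and from 69.0 to 112 CPM in anemic mice (log2 -0.73, SE 0.11). In endothelial-like cells Slc3a2 rose by 0.38 (SE 0.07) while Slc7a5, its partner in the leucine transporter, fell (-0.43, SE 0.08), and in stellate-like cells Slc1a5 and Slc7a1 rose by 0.55 (SE 0.13) and 0.36 (SE 0.10). Of 12 tRNA synthetase genes, 5 rose and 1 fell in hepatocyte-like cells, beside the same 52.9%, with Gars higher by 0.65 (SE 0.11).

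The IRE1 and ATF6 arms, which answer ER stress beside ATF4, had 9 of 19 genes lower and 10 not called in hepatocyte-like cells, beside 52.9% of all genes called, with 7 of the 19 above 0. Among those lower were Ern1 (-0.93, SE 0.17) and Sel1l (-0.71, SE 0.14). In B-like cells 5 of 19 fell, against 3.33% of all genes, with Creld2 at -0.74 (SE 0.13). In endothelial-like cells 5 rose and 1 fell, against 18.0% of all genes, with Calr and Atf6 each at 0.31 (SE 0.08). Mitochondrial chaperones and relays had 4 of 6 genes higher in hepatocyte-like cells, against 52.9% of all genes, Hspe1 by 0.91 (SE 0.10).

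Among the other ATF4 targets 6 of 8 rose in endothelial-like and 5 of 8 in stellate-like cells, none falling, against 18.0 and 15.0% of all genes. Vldlr, a lipoprotein receptor, ran from 1.90 to 3.22 CPM in endothelial-like cells of controls and from 4.31 to 33.2 CPM in those of anemic mice (log2 2.84, SE 0.40). Stc2, a secreted glycoprotein, went from 11.3 to 17.2 CPM up to 20.9 to 46.9 CPM (log2 1.44, SE 0.18). Vldlr and Stc2 are also known as hypoxia-induced genes. The hypoxia list itself was higher in 8 of 10 genes in macrophage-like, 7 in endothelial-like, 6 in hepatocyte-like and 5 in stellate-like cells, against 2.83, 18.0, 52.9 and 15.0% of all genes called, with 36 higher and 1 lower of 113 pairs over all classes. Egln3 and Vegfa rose in macrophage-like cells by 3.00 (SE 0.33) and 2.95 (SE 0.22), and Bnip3 in hepatocyte-like cells by 2.28 (SE 0.13), where Vegfa fell (-0.58, SE 0.12). Vldlr in endothelial-like cells and Egln3 and Vegfa in macrophage-like cells had control means of 2.58, 2.13 and 5.21 CPM. They passed the naming limit of 10 CPM only through the anemic mice, so nothing is read from their choice.

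The glucocorticoid list, whose receptor also acts on Ddit4, had 4 of 6 genes higher and 1 lower in stellate-like cells, 2 higher and 1 lower in endothelial-like cells and 1 of 6 higher in macrophage-like cells, against 15.0, 18.0 and 2.83% of all genes. Zbtb16 stood at 3.12 (SE 0.38) in stellate-like and Fkbp5 at 1.22 (SE 0.25) in macrophage-like cells. The immediate early and heat shock genes of the dissociation list had 5 of 9 lower and 2 higher in hepatocyte-like cells, where Jun stood at -0.87 (SE 0.15), and 3 of 9 higher in endothelial-like cells, where Jun stood at 0.56 (SE 0.10). Of all genes 52.9 and 18.0% were called there. Among paralogs of the 9 genes, 1 of 5 tested rose and 2 fell in hepatocyte-like cells, where 52.9% of all genes were called. Chac2 rose there by 0.66 (SE 0.11) and Trib1 fell (-0.31, SE 0.10). Over all classes 3 of 58 pairs rose and 3 fell.

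The genes most like each member over the classes were found by Pearson's r of the 12 class means of log2(CPM + 1) among 13304 genes, as a description, since the classes share libraries. Atf4 was nearest to Csnk1e (r = 0.9611), Ddit4 to Tubgcp6 (0.9759), Psat1 to Ppih (0.9838) and Phgdh to Ptprcap (0.9632). Asns was nearest to Pdzk1ip1 (0.8263) and Slc25a21 (0.8208), Trib3 to Isca1 (0.8668), Ddit3 to Tesk2 (0.8806) and Sesn2 to Il10rb (0.8926). Chac1 did not reach 10 CPM in any class and was not matched.

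**Figure D5:**
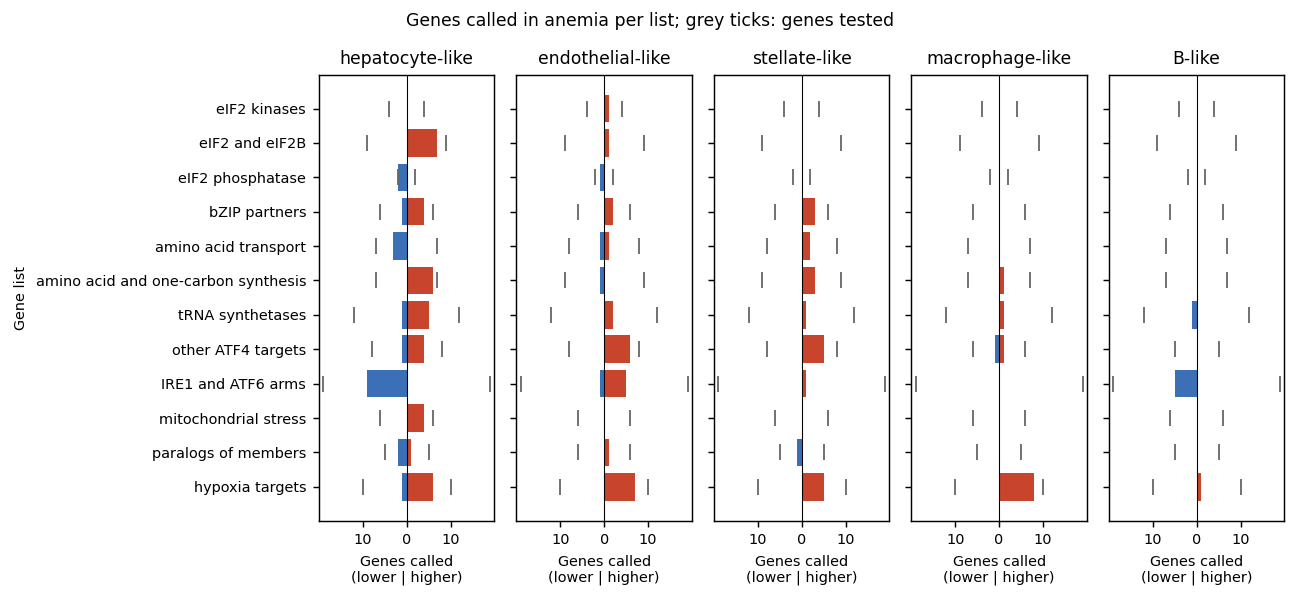
Number of genes called higher (red, to the right) or lower (blue, to the left) in anemia for each gene list (y axis) in 5 classes, with grey ticks at the number tested. In hepatocyte-like cells, where 52.9% of all genes were called, 6 of 7 synthesis enzymes and 7 of 9 eIF2 and eIF2B genes were called higher and 9 of 19 genes of the IRE1 and ATF6 arms lower, and of 10 hypoxia targets 8 were called higher in macrophage-like and 1 in B-like cells.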

How the data were processed

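Single-cell suspensions of 12 livers were sequenced by droplet RNA-seq, and the deposited matrices hold raw UMI counts per gene and cell, made with Cell Ranger 7.0.0 on mm10 per the submitters' processing notes. Whether intronic reads were counted is not given in the sources used here. Barcodes outside 500 to 50000 UMIs, or over 50% mitochondrial, were dropped, and the rest clustered with scanpy 1.11.5 (2000 variable genes without the members and pathway genes, 20 components, 20 neighbours, Leiden resolution 2). Clusters were named from marker lists, so class differences from the study may come from rebuilt names. Doublets were called per library as the cells most like simulated doublets, at a preset rate of 0.8% per 1000 cells, and kept. UMIs were summed per mouse and class and tested in edgeR 4.0.16 with the quasi-likelihood test, TMM factors and no covariate. Samples were grouped by their labels. DESeq2 1.42.0, limma 3.58.1 voom, other filters, scalings and clusterings, a replicate block, a Y-linked covariate and leaving out each mouse were alternatives. Two-sided exact permutation tests over mice were computed with numpy 2.4.6. The scripts were tested on simulated data. Genes open to naming were all 9 members in every class and up to 3 genes per pathway list and direction. The latter were taken by size of the log2 difference among called genes with a mean of at least 10 CPM in 1 of the groups. The text gives a part of these, not always the largest. The members and all lists were chosen with earlier results of these data known. The counts cover counting and animal error of 6 mice per group.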

Additional observations from a re-analysis of the deposited data

Results flagged for a closer look

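Of 192 groups of 6 mice (96 tested pairs of gene and class in 2 conditions), 23 had a mouse set apart from the other 5, by the gap to its nearest neighbour relative to the group's range (Dixon's 95% critical value), and chance alone sets about 1 in 20 groups apart. Anemia 2 was that mouse in 8 of the 23 and control 5 in 5.

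Anemia 2 was highest of the anemic mice for Psat1 in macrophage-like (24.7 CPM, next 6.90) and hepatocyte-like cells (21.1, next 12.2), for Phgdh in NK-like (232, next 125) and T-like cells (132, next 69.9), and for Asns in pre-B-like (5.04, next 3.14) and stellate-like cells (13.3, next 6.18). It was lowest for Atf4 in erythroid-like (38.7, next 51.0) and Sesn2 in macrophage-like cells (8.60, next 15.0). Anemia 5 was highest for Atf4 in hepatocyte-like (52.6, next 40.5) and Ddit4 in dendritic-like cells (28.3, next 11.0), and anemia 6 for Sesn2 in T-like cells (19.1, next 11.2).

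Among the controls, control 5 was lowest for Ddit3 in B-like (17.1 CPM, next 23.8) and Trib3 in pre-B-like cells (2.73, next 4.68), and highest for Ddit3 in T-like (25.6, next 18.4), Sesn2 in neutrophil-like (19.9, next 16.3) and Phgdh in macrophage-like cells (3.72, next 2.44). Control 3 was highest for Ddit4 in NK-like (29.5, next 21.1), Asns in erythroid-like (87.1, next 49.4), Psat1 in stellate-like (12.1, next 7.20) and Phgdh in monocyte-like cells (15.1, next 5.58). Control 1 was highest for Ddit3 in NK-like (25.1, next 17.3) and Chac1 in neutrophil-like cells (15.3, next 8.17), and control 6 for Trib3 in erythroid-like cells (17.4, next 9.22).

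The difference between anemia and control departed from that in the other classes by 0.60 on the log2 scale for Atf4 in erythroid-like cells, by 0.73 and 0.46 for Asns in hepatocyte-like and endothelial-like cells, by -0.76 for Asns in pre-B-like cells and by -0.80 for Phgdh in macrophage-like cells. Each had the smallest p the exact permutation test over 12 mice can give (0.00216, adjusted 0.0416). That p arises only where the departures, though not always the levels, lie on 1 side of all controls in all 6 anemic mice. No adjusted p was under 0.05 with a pseudocount of 0.1 or 10 CPM (0.0693).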

How the results depend on the processing

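Over 24 alternatives, the 96 pairs gave 2231 values, of which 2189 kept direction and side of the threshold, 32 gained a call and 10 lost it; no called pair changed sign, while 29 uncalled pairs did. The member-class pairs called went from 9 to 16 in the joint limma voom model, and ran from 8 to 12 when 1 mouse was left out. The replicate block gave 11 member-class pairs called, adding Chac1 in the B-like class (-1.90, adjusted p = 0.0385) and Phgdh in the stellate-like class (0.78, adjusted p = 0.0246); same-numbered mice correlated in their deviations from -0.20 to 0.32, with 29 of 72 values over 0.1, so the numbers were not read as pairs. The class-dependent effects went from 5 to 0 with a pseudocount of 0.1 or 10 CPM (lowest adjusted p 0.0693 each), with doublets left out (0.062), at Leiden resolution 1 (0.0525) and without clusters mostly of 1 group (0.0509, chosen after seeing the data). Fewer than 5 pairs at the smallest p do not pass by themselves, so a count of 0 can leave pairs at the smallest p. It ran from 0 to 7 when 1 mouse was left out, with 0 without control 1, 3 or 5 (0.0693) and control 2 or 4 (0.0519). The pathway-list gene-class pairs called ran from 154 to 220, and the genes called over 12 classes from 10397 to 13994 against 13181, when 1 mouse was left out. The cause of these changes was not tested. Low counts limit Chac1, Trib3 and, outside erythroid-like cells, Asns.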
